A study of Homo sapiens with 28 samples.

Results

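The SOX and FOX genes encode 2 families of DNA-binding transcription factors, and their RNA was followed across 13 groups of AN3CA cells, a human endometrial carcinoma cell line. Members were taken by symbol: SOX followed by a number, or FOX followed by a letter from A to S and a number. This gave 63 of the 26346 genes in the count files, 19 SOX and 44 FOX. Symbols with a further suffix, such as the FOXD4L copies, were not included. Polyadenylated RNA of 28 libraries was sequenced, 4 from cells carrying an empty vector and 2 from each of 12 constructs. The ARID1A constructs were the wild type, the CBR and delIDR1 truncation mutants, DBDmut with a mutated ARID domain, DDX4 (a hybrid carrying an intrinsically disordered region), the AQG scramble mutant and the mutant given as 42YS in one label and as Y42S in the titles. Y and S are the letter codes of tyrosine and serine, and the labels do not say whether 1 tyrosine or many were changed. The ARID1B constructs were the wild type, M2 (S320_G327del), A457_G461del, Block13del and Block9del. All groups were untreated AN3CA cells grown in EMEM with fetal bovine serum. The labels name no promoter or clone. They do not state that replicates came from separate cultures, and the spread behind each p-value may then be technical.

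SOX proteins bind the minor groove of DNA through an HMG box and bend it. They are sorted by sequence into groups B to H and are known for fixing cell identity, as SOX2 does in stem cells and SOX9 in cartilage and gland epithelium. FOX proteins bind through a winged-helix forkhead domain: FOXA factors open compacted chromatin, FOXM1 drives mitotic genes, FOXO factors act downstream of insulin and PI3K signalling, and FOXP factors mostly repress. ARID1A and ARID1B are alternative subunits of the BAF (SWI/SNF) chromatin remodeler, and both are frequently mutated in endometrial cancer. FOXO1 and SOX17 are known for roles in the endometrium, FOXO1 in the decidual stroma and SOX17 in the epithelium.

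Levels are given in CPM, read counts scaled to the size of the library. Depth was 16568010 to 27867107 reads on genes per library, so 1 CPM stood for 15.3 to 28.4 reads. The libraries fell into 3 sets by the share of their gene reads on the counted strand, a split that the labels do not name. Set 1 (84.5 to 87.8%) held empty vector replicates 1 and 2 with CBR, DBDmut, delIDR1 and ARID1A wild type. Set 2 (98.1 to 98.6%) held DDX4, ARID1B wild type, M2 and empty vector replicates 3 and 4. Set 3 (96.7 to 97.9%) held the other 5 constructs and no empty vector. The 2 empty vector pairs differed at 58.5% of the 14220 genes tested. Among members, 7 were higher and 15 lower in replicates 3 and 4 than in 1 and 2. Results against all 4 empty vector libraries are therefore given beside those against the pair of the same set, here called the own pair. For the 5 constructs of set 3 the set and the construct cannot be told apart. The 2 AQG scramble libraries differed from each other more than those of any other construct. Their chi-square per degree of freedom over genes was 30.4, beside 1.18 to 4.97 in the other constructs, where sampling noise alone gives 1. This limits every AQG scramble result below. ARID1B reads stood at 98 ± 6.54 CPM in the empty vector (SD, n = 4) and at 344 to 4250 CPM in the ARID1B constructs. ARID1A reads stood at 288 ± 12.5 CPM in the empty vector and at 374 to 1017 CPM in 6 of the ARID1A constructs, but at 247 ± 52.6 CPM (SD, n = 2) in the AQG scramble. Of the endometrial markers, ESR1 and PGR held no read in the empty vector and PAX8 none, EPCAM and CDH1 were at 0.482 and 0.0891 CPM, and VIM was at 5187 CPM. Of the 10 tested genes of that list, KRT8 (3.25 and 2.20 on the log2 scale, in ARID1A and ARID1B wild type), KRT18 (1.97 and 2.0), KRT19 and MUC1 (0.71 and 0.53) were called higher in both wild types and EMX2 lower (-2.20 and -2.64). KRT19 was at 0.0139 CPM in the empty vector and at 0.439 and 0.837 CPM in the wild types. The summed immune list (6 genes) was 1.68 to 2.94 CPM in the empty vector and 14 to 16.9 CPM in both wild types, mostly CD68; PTPRC was at or near 0. The fibroblast list (5 genes) summed to 2288 to 3255 CPM in the empty vector and 3446 to 3756 CPM in both wild types, nearly all of it COL1A2, with DCN and LUM at 0. PDGFRB (4.42 and 3.60) and PDGFRA of this list were called higher in both wild types, PDGFRA at 0.0589 CPM in the empty vector and at 2.66 and 1.61 CPM in the wild types. The endothelial list (5 genes) stayed under 1 CPM in all of these. Their part in the results below was not tested.

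Of the 63 members, 36 passed the filter on low counts and were tested, 10 SOX and 26 FOX. The empty vector cells held 29 members above 1 CPM and 7 above 100 CPM. Per kilobase of exon, SOX4 ranked first at 121 CPM per kb, before FOXC1 at 70.1, SOX9 at 59.3, FOXK2 at 33.7, FOXM1 at 33.6 and FOXP4 at 19.9. SOX4 is a neural and epithelial progenitor factor, FOXC1 a factor of mesenchyme, and FOXK1 and FOXK2 regulate metabolism and autophagy genes. FOXA1, a pioneer factor of hormone-responsive epithelia, was low, at 7.68 ± 1.22 CPM (SD, n = 4).

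The other 27 members, 9 SOX and 18 FOX, were not tested. No read was counted in any library for SOX1, SOX3, SOX14, FOXB1, FOXB2, FOXI2, FOXI3 and FOXN1. Over all 28 libraries together, SOX17, the endometrial epithelial factor, had 2 reads, FOXA2, the factor of uterine glands, also 2, and SOX11, a neural relative of SOX4, also 2. SOX10, the neural crest factor, had 5 reads and FOXJ1, the driver of motile cilia, 29. SOX5, SOX21, SOX30, FOXA3, FOXC2, FOXE1, FOXE3, FOXI1, FOXL1, FOXQ1, FOXR1 and FOXR2 had between 1 and 19 reads each. FOXF1 had 103 reads and never passed 0.408 CPM. No construct lifted any of these genes to a level that could be tested.

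Across the 12 comparisons with the empty vector, 9 of the 36 tested members were called only higher, 11 only lower, 14 in both directions in different constructs, and 2 (FOXN4 and SOX7) in none. This tally was not made over all genes, of which 24.7 to 53.1% were called per comparison, and is no result about the families. A call is an adjusted p under 0.05 over all 14220 genes. ARID1A wild type called 18 members, where 44.5% of all genes were called. Of these members 10 were higher and 8 lower, with 21.1% and 23.5% of all genes. ARID1B wild type called 19 (background 43.1%), 8 higher and 11 lower (19.2% and 23.9% of all genes). CBR called 17 (53.1%), delIDR1 15 (50.1%), DBDmut 12 (35.1%), DDX4 10 (39.5%) and M2 18 (47.3%). The AQG scramble called 12 (24.7%), 42YS 13 (33.8%), A457_G461del 19 (39%), Block13del 17 (39.3%) and Block9del 17 (39%). These shares of 36 are near the background in most constructs and are no result about the families. The median absolute log2 change of the tested members against the empty vector was 0.31 in ARID1A wild type and 0.48 in ARID1B wild type, beside 0.29 and 0.29 over all genes tested. Fitted with only the 2 groups compared, the ARID1A wild type called 5 members and the ARID1B wild type 5, each in a fit of 6 libraries. The share of all genes called was not counted in these fits, nor in those without single libraries that follow. Without ARID1A wild type replicate 1 there were 9 calls and without replicate 2 there were 10, and 9 in each case were among the 18. Every count that fell by more than 1.5 times without 1 library is named in the closing section.

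**Figure D1:**
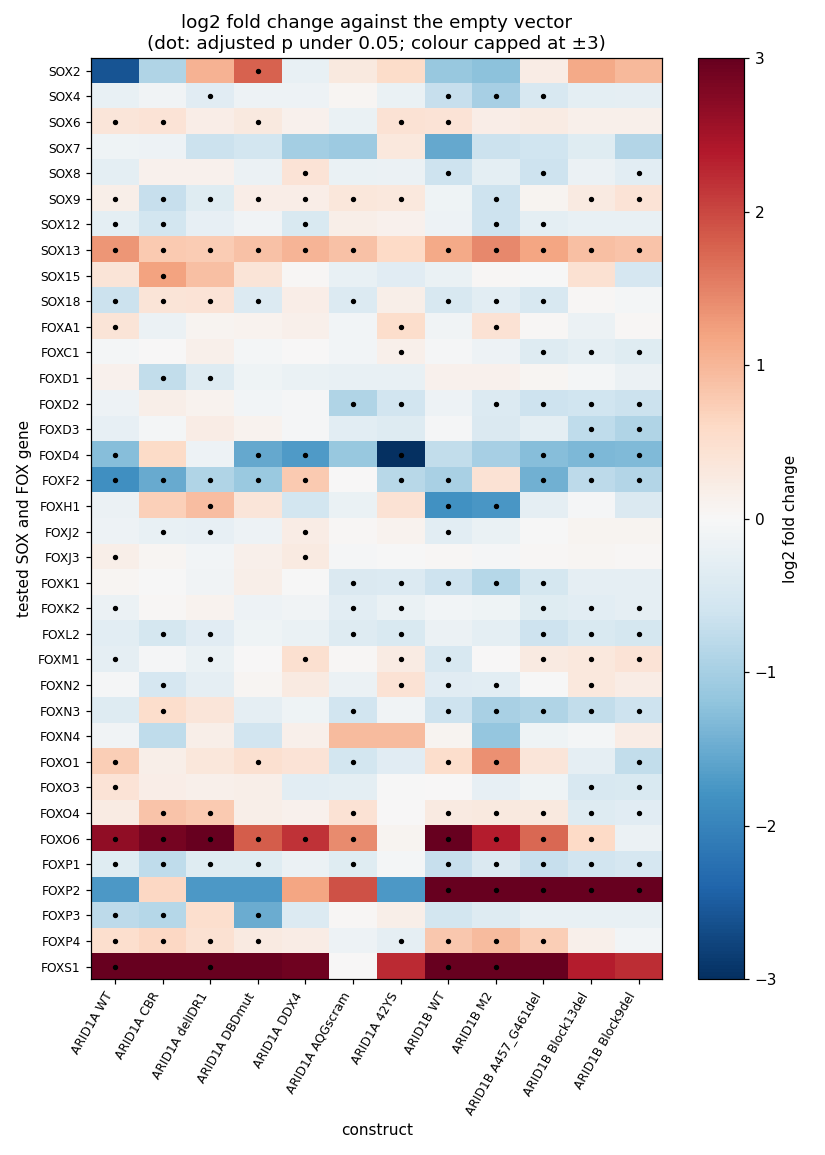
Log2 fold change of each tested SOX and FOX gene (rows) in each construct (columns) against the 4 empty vector libraries, with colour capped at ±3 and a dot where the adjusted p was under 0.05. FOXO6 is dotted in 10 constructs, FOXP2 in the 5 ARID1B constructs and FOXS1 in 4, and cells of FOXS1, SOX2 and FOXP2 rest on few reads, where the fitted fold depends on the prior count.

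Against the own pair, ARID1A wild type called 21 members (60.7% of all genes) and 11 of its 18 calls kept their direction. ARID1B wild type called 22 (52%), with 16 of its 19 calls kept, and M2 called 22 (53.1%), with 16 of 18 kept. CBR called 19 (59.6%), with 15 of 17 kept, delIDR1 22 (56.3%), with 13 of 15 kept, DBDmut 15 (59%), with 9 of 12 kept, and DDX4 17 (50.5%), with 8 of 10 kept.

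The largest change of any member was that of FOXP2, a forkhead repressor known for its role in speech and in forebrain circuits, and it occurred in the ARID1B constructs. The GRCh38.p14 promoter table of RefSeq lists 2 FOXP2 starts and 1 FOXO6 start. FOXP2 and FOXO6 were the members that rose by at least 2 on the log2 scale to a mean of 1 CPM or more. Their starts are shown because the upstream sequence at those listed was of opposite composition. Each run is the 250 bases before the start, plus strand, 5′ to 3′, with every CG in capitals. The counts were made on hg19 genes and do not tell which start was used. The promoter table lacks some members and may also lack starts of FOXP2, so the windows need not describe all promoters of the gene.

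FOXP2 start 1, chr7:114414565-114414814: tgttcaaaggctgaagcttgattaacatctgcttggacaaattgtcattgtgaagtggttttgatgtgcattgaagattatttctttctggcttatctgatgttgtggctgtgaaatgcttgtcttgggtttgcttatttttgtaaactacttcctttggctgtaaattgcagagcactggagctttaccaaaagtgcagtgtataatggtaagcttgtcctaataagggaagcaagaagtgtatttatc
FOXP2 start 2, chr7:114426252-114426501: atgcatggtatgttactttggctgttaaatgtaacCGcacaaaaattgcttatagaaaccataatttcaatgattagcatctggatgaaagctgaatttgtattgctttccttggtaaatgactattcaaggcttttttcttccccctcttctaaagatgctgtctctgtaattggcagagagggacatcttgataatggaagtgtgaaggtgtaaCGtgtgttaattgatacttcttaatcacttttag
FOXO6 start 1, chr1:41361184-41361433: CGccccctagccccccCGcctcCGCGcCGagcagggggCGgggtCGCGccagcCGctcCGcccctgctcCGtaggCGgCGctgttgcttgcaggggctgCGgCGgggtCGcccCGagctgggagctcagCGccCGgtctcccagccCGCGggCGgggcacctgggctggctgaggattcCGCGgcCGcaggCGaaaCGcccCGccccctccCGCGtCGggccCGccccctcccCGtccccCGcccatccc

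The FOXP2 windows held 0 and 2 CG and were 37.6% and 35.6% G or C, and the FOXO6 window held 34 CG and was 81.6% G or C. Over the 35116 promoters of the table the medians were 11 CG and 58.0% G or C. Of all promoters, 6.06% had as few CG as the first FOXP2 start, 22.9% as few as the second, and 6.84% as many as FOXO6. The table matched 43 members, 27 of them tested, whose starts had a median of 20.5 CG and 66.8% G or C.

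FOXP2 had 0, 1, 0 and 0 reads in the 4 empty vector libraries. ARID1B wild type had 181 and 361 reads (9.94 and 17.0 CPM) and M2 had 600 and 419 reads (22.9 and 18.7 CPM). A457_G461del had 204 and 184 reads (8.31 and 7.21 CPM), Block13del 52 and 68 reads (2.73 and 2.82 CPM) and Block9del 17 and 25 reads (0.659 and 1.09 CPM). Every ARID1B library was above every other library of the series. None of the 14 ARID1A libraries exceeded 3 FOXP2 reads: ARID1A wild type, delIDR1, DBDmut and 42YS had none, CBR had 1 and 0, DDX4 had 1 and 1, and the AQG scramble had 0 and 3.

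Against the single empty vector read of FOXP2, the ratio of CPM was 1067 in ARID1B wild type, with an exact 95% counting interval of 191 to 42217. It was 1625 in M2 (291 to 64240), 601 in A457_G461del (107 to 23792), 216 in Block13del (38.0 to 8583) and 66.7 in Block9del (11.3 to 2697). All 5 were called, with adjusted p between 4.18e-11 in M2 and 7.22e-05 in Block9del. The intervals are wide because their lower side rests on 1 read, and they cover counting error only. The fold of ARID1A wild type against ARID1B wild type was called directly (adjusted p = 1.15e-07), but the difference of their own-pair responses was -13.59 ± 5.60 (SE) on the log2 scale with adjusted p = 0.0578. Both ARID1A wild type libraries and both libraries of empty vector replicates 3 and 4 were at 0 reads, so that contrast had little to fit.

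**Figure D2:**
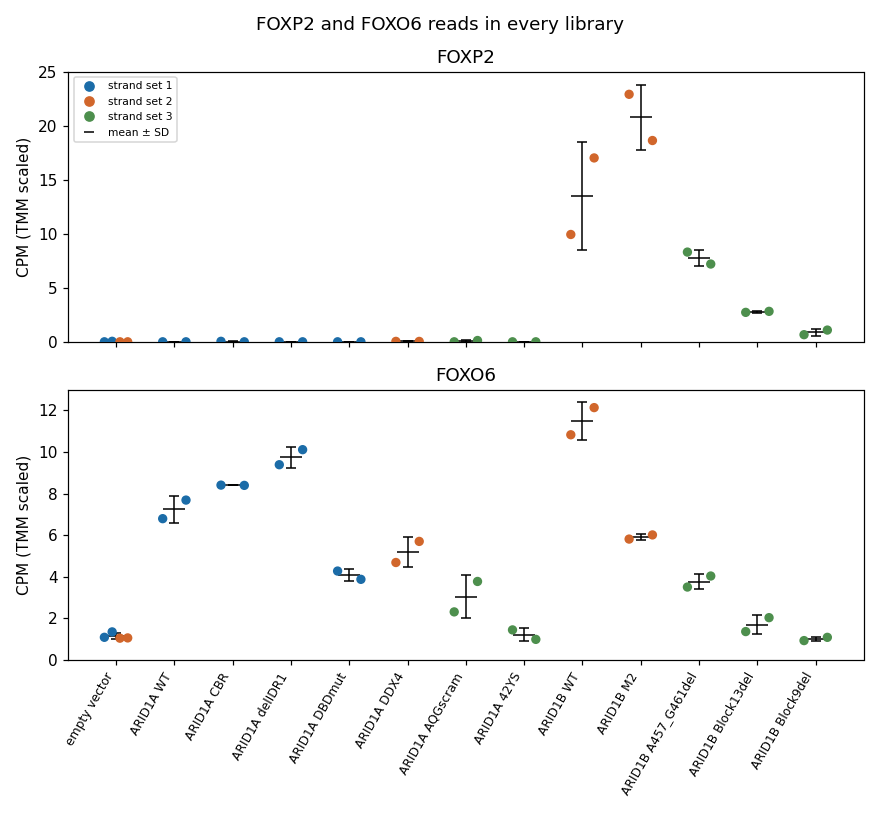
FOXP2 (upper) and FOXO6 (lower) in CPM in every library of the 13 groups, coloured by strand set, with the mean and SD of each group in black. FOXP2 is near 0 outside the 5 ARID1B constructs, while FOXO6 is raised in both the ARID1A and the ARID1B constructs and stays near the empty vector in 42YS and Block9del.

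Within the ARID1B constructs, the order of FOXP2 was also the order of ARID1B reads. Mean FOXP2 was 20.8 ± 3.03 CPM in M2, 13.5 ± 5.02 in wild type, 7.76 ± 0.782 in A457_G461del, 2.77 ± 0.0662 in Block13del and 0.873 ± 0.302 in Block9del (SD, n = 2 each). ARID1B itself stood at 4250 ± 96.2, 3597 ± 225, 2236 ± 32.9, 883 ± 7.14 and 344 ± 0.277 CPM in the same groups. FOXP2 was not called different between M2 and wild type (log2 difference 0.62 ± 0.254, adjusted p = 0.125), nor between Block13del and Block9del (1.68 ± 0.365, adjusted p = 0.0700). A457_G461del exceeded Block9del by 3.16 ± 0.336 on the log2 scale (adjusted p = 1.00e-05). The part of the ARID1B level in this order was not tested, and the 3 lower constructs were all in set 3 and the other 2 in set 2.

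**Figure D3:**
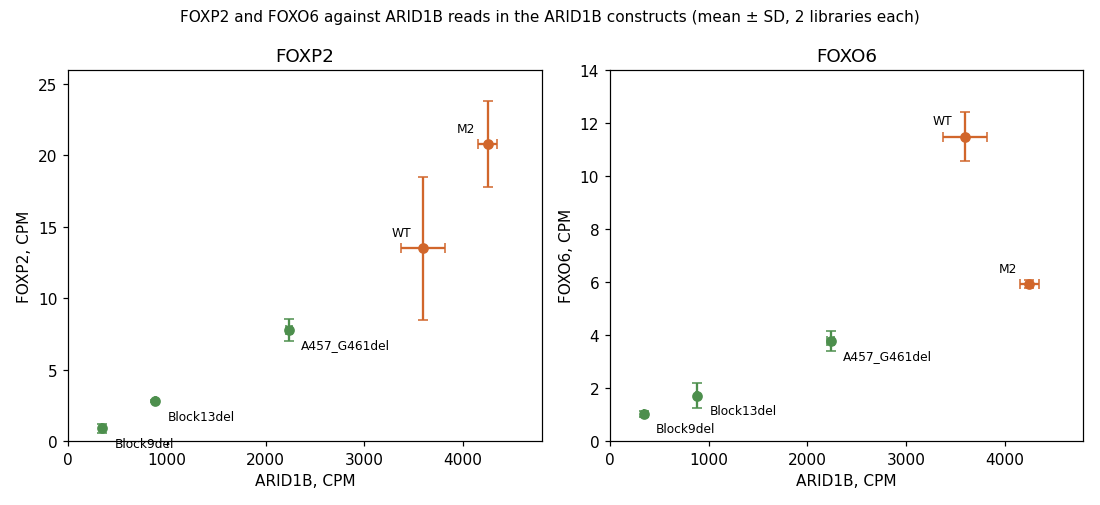
Mean FOXP2 (left) and FOXO6 (right) against mean ARID1B reads in the 5 ARID1B constructs, all in CPM, with SD bars over 2 libraries and the colours of the strand sets. FOXP2 has the order of ARID1B reads through all 5 groups, whereas FOXO6 is higher in the wild type than in M2.

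The other FOXP genes moved less and not in 1 direction. FOXP4, a relative with a forkhead domain much like that of FOXP2, had 130, 136, 103 and 103 CPM in the empty vector. It had 201 and 210 CPM in ARID1B wild type and 232 and 228 CPM in M2, with no overlap. The log2 change was 0.80 ± 0.0978 (adjusted p = 2.04e-06) in ARID1B wild type and 0.96 ± 0.0972 (adjusted p = 1.24e-07) in M2, and 0.99 and 1.16 against the own pair. FOXP4 was called higher in 7 constructs, among them ARID1A wild type (0.51 ± 0.0988) and CBR (0.62 ± 0.0982), and lower in 42YS (-0.27 ± 0.102). The 42YS call was lost with only the 2 groups compared in the fit (-0.26), without any single library of 42YS or of empty vector replicates 1 and 2, and against empty vector replicates 3 and 4 (-0.07).

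FOXP1, a repressor of lymphoid and epithelial genes, was called lower in 10 of 12 constructs, all but DDX4 and 42YS. It had 33.9, 36.0, 26.9 and 25.7 CPM in the empty vector, 17.6 and 20.2 CPM in ARID1B wild type, and 18.4 and 17.9 CPM in CBR. Both constructs were below every empty vector library, with changes of -0.70 ± 0.111 (adjusted p = 4.47e-05) and -0.76 ± 0.110 (adjusted p = 1.20e-05). Against the own pair it was lower in 6 of 7 constructs and DDX4 was at 0.04 ± 0.0748. FOXP3, the factor of regulatory T cells, was near 1 CPM and was called lower in ARID1A wild type, CBR and DBDmut, of which only DBDmut was also called against its own pair (-1.34 ± 0.383, adjusted p = 0.00397). Of the stranded reads over FOXP3, 49.0, 29.3 and 46.1% lay on the strand not counted in sets 1, 2 and 3, so its signal is uncertain.

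FOXO6, a forkhead of the insulin pathway that is known mainly from brain and liver, was called higher in 10 constructs and lower in none. It had 1.09, 1.35, 1.05 and 1.06 CPM in the empty vector. ARID1B wild type had 10.8 and 12.1 CPM, delIDR1 9.38 and 10.1, CBR 8.40 and 8.39, and ARID1A wild type 6.79 and 7.68. M2 had 5.81 and 6.01 CPM, DDX4 4.68 and 5.70, DBDmut 4.27 and 3.87, A457_G461del 3.50 and 4.03, and the AQG scramble 2.31 and 3.77. All 18 of these libraries lay above the 4 empty vector libraries. Block13del had 1.36 and 2.03 CPM, 42YS 1.44 and 0.989, and Block9del 0.930 and 1.09. The last 2 overlapped the empty vector.

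The log2 change of FOXO6 was 3.32 ± 0.177 in ARID1B wild type (adjusted p = 1.06e-11), 3.08 ± 0.178 in delIDR1 (5.64e-11) and 2.66 ± 0.185 in ARID1A wild type (4.56e-10). It was 1.83 ± 0.197 in DBDmut (adjusted p = 4.74e-07) and 1.42 ± 0.202 in the AQG scramble (8.74e-05). The own-pair values differed little, at 3.44 ± 0.213, 2.99 ± 0.192, 2.57 ± 0.208 and 1.74 ± 0.232 for the first 4. The empty vector pairs themselves did not differ detectably (-0.21 ± 0.337). In Block13del the change of 0.59 ± 0.225 had an adjusted p of 0.0456. That call was lost with DESeq2, without the count filter, with either empty vector pair alone and without each of several single libraries, among them Block13del replicate 2 (0.25).

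The constructs differed from each other in FOXO6. It was lower in DBDmut than in ARID1A wild type (-0.83 ± 0.192, adjusted p = 0.0109), although this was lost without either DBDmut replicate or without ARID1A wild type replicate 2. M2 was lower than ARID1B wild type (-0.96 ± 0.179, adjusted p = 0.00116), 42YS lower than the AQG scramble (-1.33 ± 0.233, adjusted p = 0.000649), and A457_G461del higher than Block9del (1.90 ± 0.233, adjusted p = 1.11e-05). ARID1A and ARID1B reads stood beside these values as follows: A457_G461del had more ARID1B reads than Block9del, M2 more than ARID1B wild type, and 42YS more ARID1A reads than the AQG scramble. Such reads are counted by gene and do not separate the construct from the cells' own gene. In the AQG scramble mean ARID1A reads were below those of the empty vector, so they do not show the level of that construct.

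The other FOXO genes act on metabolism, cell cycle exit and stress resistance. FOXO1 had 4.62, 3.87, 3.40 and 2.68 CPM in the empty vector and 9.21 and 9.70 CPM in M2, a log2 change of 1.36 ± 0.166 (adjusted p = 1.50e-06) and 1.65 ± 0.163 against the own pair. ARID1A wild type had 5.80 and 6.51 CPM (0.75 ± 0.177, adjusted p = 0.00188) and ARID1B wild type 5.38 and 5.14 CPM (0.52 ± 0.180, adjusted p = 0.0258). Both were also called against their own pairs, although ARID1B wild type was not called against replicates 1 and 2 alone (0.31). M2 exceeded ARID1B wild type by 0.84 ± 0.194 (adjusted p = 0.00564), a call that was lost without ARID1B wild type replicate 2.

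FOXO4, chosen for description after its values were seen, was called higher in 6 of 12 constructs, both truncations among them, and lower in 2. Against the own pair it was called higher in 5 of 7 constructs. CBR had 22.8 and 19.1 CPM and delIDR1 18.5 and 21.4, against 12.9, 12.2, 9.94 and 10.7 in the empty vector. Neither overlapped the empty vector, with changes of 0.87 ± 0.103 (adjusted p = 1.08e-06) and 0.80 ± 0.104 (adjusted p = 3.79e-06). Both also exceeded ARID1A wild type, by 0.62 ± 0.122 and 0.55 ± 0.122. FOXO3 had 55.8, 54.1, 31.1 and 35.7 CPM in the empty vector, and the pair difference of -0.71 was larger than any of its changes against all 4. It was called higher in ARID1A wild type (0.41 ± 0.159) but not against the own pair (0.10 ± 0.0805). Reads of FOXO3 and of its close copy FOXO3B could be split between them by the counting, so its level is uncertain.

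Among the SOX genes, SOX13 of group D, which modulates WNT signalling and T cell fate, was called higher in 11 of 12 constructs, and it was also the SOX gene whose 2 empty vector pairs differed most among those above 1 CPM. It had 2.45 and 3.55 CPM in empty vector replicates 1 and 2, and 9.16 and 7.58 CPM in replicates 3 and 4. ARID1A wild type had 12.9 and 14.6 CPM, M2 15.3 and 14.6, and ARID1B wild type 11.2 and 12.9. All 6 were above the 4 empty vector libraries. The other constructs had 7.81 to 13.1 CPM, and 42YS, delIDR1 and Block9del overlapped the empty vector.

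The size of the SOX13 rise depended on which empty vector pair was used. In ARID1A wild type it was 1.33 ± 0.284 (adjusted p = 0.000810) against all 4 and 2.20 ± 0.160 (adjusted p = 5.64e-12) against the own pair. In DDX4 it was 1.01 ± 0.282 against all 4 and 0.42 ± 0.137 against the own pair (adjusted p = 0.0135). Against replicates 3 and 4 alone, the calls in the AQG scramble, CBR, DBDmut, delIDR1, Block13del and Block9del were lost, at 0.16 to 0.30. The own-pair responses of ARID1A and ARID1B wild type differed by 1.66, although ARID1A wild type and ARID1B wild type were not called apart in level.

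SOX6, the other expressed group D gene, which shapes muscle, cartilage and erythroid genes, was called higher in 5 constructs and lower in none. It had 54.8, 57.2, 43.5 and 42.3 CPM in the empty vector, and 64.9 and 66.4 CPM in ARID1B wild type, with a change of 0.41 ± 0.112 and 0.61 ± 0.0913 against the own pair. SOX5, the third gene of group D, was not tested, as given above.

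**Figure D4:**
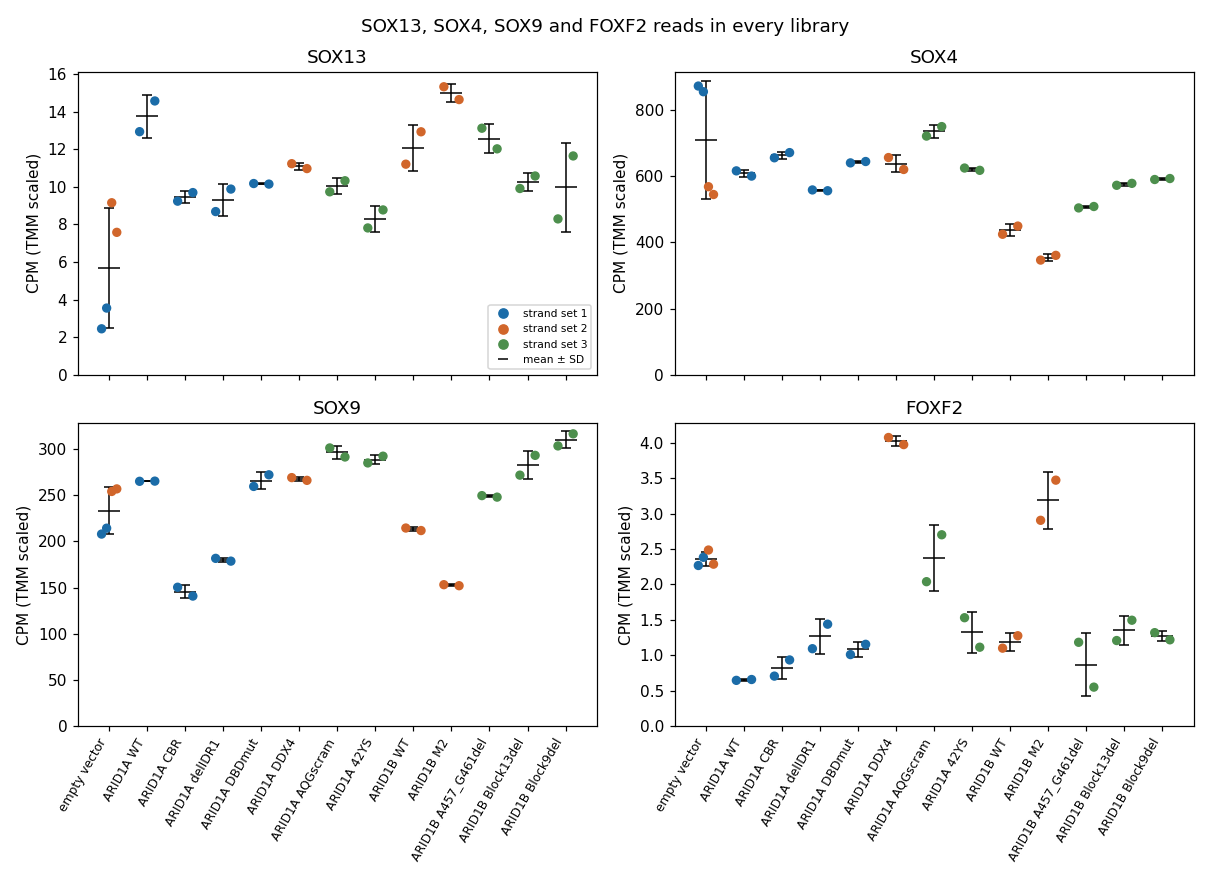
SOX13, SOX4, SOX9 and FOXF2 in CPM in every library, coloured by strand set, with the mean and SD of each group in black. The blue and orange empty vector libraries separate for SOX13 and SOX4 but lie together for FOXF2, which is low in ARID1A wild type and highest in DDX4.

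SOX4, the group C factor of progenitors and tumour invasion, had 872 and 855 CPM in empty vector replicates 1 and 2 but 568 and 544 CPM in replicates 3 and 4. M2 had 346 and 361 CPM and ARID1B wild type 424 and 449 CPM, below all 4. Their changes were -1.01 ± 0.140 (adjusted p = 8.35e-06) and -0.70 ± 0.138 (adjusted p = 0.000425), and -0.65 ± 0.0413 and -0.35 ± 0.0412 against the own pair. ARID1A wild type, with 616 and 600 CPM, lay between the empty vector pairs. It was not called against all 4 (-0.22 ± 0.135) but was lower than its own pair (-0.51 ± 0.0408, adjusted p = 4.71e-11).

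The direct comparison of the wild types had SOX4 higher in ARID1A than in ARID1B (0.48 ± 0.155, adjusted p = 0.0472). The difference of their own-pair responses had the opposite sign, -0.16 ± 0.0579, as ARID1A wild type fell further from a higher pair. DDX4, with 656 and 620 CPM, was above its own pair by 0.20 ± 0.0409 (adjusted p = 0.000245), the only construct of the 7 with an own pair in which SOX4 was called higher.

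SOX12, the other expressed group C gene, was lower in M2, with 50 and 48.3 CPM, in CBR, with 53.3 and 49.2, and in DDX4, with 53.9 and 56.2. The empty vector had 69.3, 64.6, 84.8 and 83.7 CPM, above all of these. The changes were -0.62 ± 0.105, -0.56 ± 0.105 and -0.46 ± 0.104, and all 3 were also called against the own pair (-0.78, -0.38 and -0.61).

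SOX9, the group E factor of cartilage, crypts and glands, had 208, 214, 254 and 257 CPM in the empty vector. It was lower in CBR (150 and 141 CPM), in M2 (153 and 152) and in delIDR1 (182 and 179), and none overlapped the empty vector. The changes were -0.68 ± 0.0735 (adjusted p = 2.91e-07), -0.61 ± 0.0731 (1.17e-06) and -0.37 ± 0.0723 (0.000290), and all 3 were called against the own pair. SOX9 was higher in Block9del (304 and 317 CPM, 0.41 ± 0.0700), the AQG scramble (301 and 292, 0.35 ± 0.0702) and 42YS (285 and 292, 0.31 ± 0.0703), above every empty vector library. SOX9 stood at 265 CPM in both ARID1A wild type libraries, 0.19 ± 0.0707 against all 4 and 0.33 ± 0.0446 against the own pair. That call was lost against replicates 3 and 4 alone (0.05).

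SOX9 was lower in 3 mutants than in the wild type of their set. CBR was below ARID1A wild type by 0.87 on the log2 scale (-0.87 ± 0.0829, adjusted p = 9.99e-08), delIDR1 by -0.56 ± 0.0825 (adjusted p = 3.03e-05), and M2 below ARID1B wild type by -0.48 ± 0.0825 (adjusted p = 0.000540). SOX8, also of group E, was at 17.2 CPM in the empty vector and was called higher in DDX4 (0.40 ± 0.118) and lower in ARID1B wild type (-0.62 ± 0.130), A457_G461del (-0.63 ± 0.127) and Block9del (-0.32 ± 0.124).

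SOX18 of group F, a factor of blood and lymphatic vessels, was chosen for description after its values were seen. Its 4 empty vector libraries agreed, at 16, 16.3, 15.8 and 16.3 CPM. Its level in ARID1A wild type was 9.60 and 10.8 CPM, below all 4, whereas CBR had 22.6 and 19.5 and delIDR1 20.7 and 22.1, above all 4. The changes were -0.65 ± 0.113 (adjusted p = 9.55e-05), 0.39 ± 0.103 and 0.41 ± 0.103. Both truncations exceeded ARID1A wild type, by 1.04 ± 0.126 and 1.07 ± 0.126 (adjusted p = 1.82e-06 and 2.16e-06). ARID1B wild type was also lower than the empty vector (-0.48 ± 0.111).

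SOX2, the group B stem cell factor, was scarce, with 1, 4, 7 and 14 reads in the empty vector. ARID1A wild type had 1 read in each library and DBDmut 29 and 21, a ratio of 22.6 with an exact 95% counting interval of 5.94 to 192. The fitted difference was 4.36 ± 0.913 (adjusted p = 0.00509), and the call was lost without either ARID1A wild type library. delIDR1, with 20 and 12 reads, also exceeded ARID1A wild type, by 13.6-fold (3.47 to 117). DBDmut was called against the empty vector (1.77 ± 0.524, adjusted p = 0.0130), but not against replicates 3 and 4 alone (0.89). SOX2 lies inside a longer noncoding transcript, SOX2-OT, so that the gene a read came from is uncertain. SOX7 and SOX15 stayed under 1 CPM on average in every group, and SOX15 was called in CBR only (1.21 ± 0.401). Of the stranded reads over SOX15, 53.9, 69.6 and 73.6% lay on the strand not counted in sets 1, 2 and 3, so its signal is uncertain.

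FOXF2, a mesenchymal forkhead, differed 6.19-fold between DDX4 and ARID1A wild type. It had 2.27, 2.38, 2.49 and 2.285 CPM in the empty vector. Levels were 0.644 and 0.656 CPM in ARID1A wild type and 0.704 and 0.932 in CBR, whereas DDX4 had 4.07 and 3.97 and M2 2.91 and 3.47. No library of these groups overlapped the empty vector.

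FOXF2 was called lower in 9 constructs, with ARID1A wild type at -1.85 ± 0.264 (adjusted p = 1.05e-05) and ARID1B wild type at -0.98 ± 0.234 (adjusted p = 0.00227). It was called higher in DDX4 (0.77 ± 0.189, adjusted p = 0.00333), while M2 missed the threshold (0.44 ± 0.196, adjusted p = 0.0749). DDX4 exceeded ARID1A wild type by 2.62 ± 0.272 (adjusted p = 3.53e-07), and the difference of the own-pair responses was 2.59 ± 0.352 (adjusted p = 9.34e-07). M2 exceeded ARID1B wild type by 1.41 ± 0.251 (adjusted p = 0.000744). The deposited reads behind these values were 11 to 113 per library.

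FOXC1 lies within 3 genes of FOXF2 and FOXQ1 in the gene order of RefSeq. It was not called in ARID1A wild type, CBR or DDX4, in which FOXF2 was called. Both were called lower in A457_G461del and in at least 1 of Block9del and Block13del. It had 262, 266, 292 and 281 CPM in the empty vector, 261 and 267 in ARID1A wild type and 279 and 277 in DDX4. It was called lower in A457_G461del (-0.38 ± 0.0628), Block9del (-0.37 ± 0.0628) and Block13del (-0.29 ± 0.0626), and higher in 42YS (0.16 ± 0.0614, adjusted p = 0.0475). FOXQ1 had 3 reads in all.

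FOXM1, the forkhead that switches on mitotic genes, had 107, 109, 137 and 138 CPM in the empty vector. DDX4 had 171 CPM in both libraries, above all 4, and ARID1B wild type had 86.2 and 90.1 CPM, below all 4. The changes were 0.48 ± 0.0794 (adjusted p = 0.000113) and -0.48 ± 0.0833 (adjusted p = 0.000132), and 0.31 ± 0.0444 and -0.64 ± 0.0464 against the own pair. DDX4 exceeded ARID1A wild type by 0.75 ± 0.0940 (adjusted p = 4.07e-06), and M2 exceeded ARID1B wild type by 0.48 ± 0.0942 (adjusted p = 0.00170). Over the 12 constructs, FOXM1 was called higher in 5 and lower in 3 against all 4.

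The 12 FOXM1 target genes of the list are mitotic regulators such as PLK1, CCNB1 and AURKB. Own-pair counts of the target lists, added after seeing the data, stand beside those against all 4. Of all genes, 29.9% were called higher and 30.8% lower against the own pair in ARID1A wild type, and 23.6% and 28.5% in ARID1B wild type. These shares were 26.1% and 24.4% in DDX4, 28.7% and 30.8% in CBR, and 25.2% and 31.1% in delIDR1. In ARID1B wild type 5 targets were called lower and 1 higher, with a median log2 change of -0.38, beside -0.07 over all genes, of which 23.9% were lower and 19.2% higher. Against the own pair 10 were lower and 2 higher (median -0.65). CKS1B, a subunit of cyclin-dependent kinases, changed by -0.85 ± 0.0896, NEK2, a centrosome kinase, by -0.65 ± 0.0714, and SKP2, a ubiquitin ligase subunit, by 0.65 ± 0.132. In DDX4, 7 were higher and 1 lower (median 0.31, with 19.7% and 19.8% of all genes), but 5 and 2 against the own pair (median 0.09). In CBR 9 were lower and 1 higher (median -0.57, with 27.8% and 25.2% of all genes), and 8 and 3 against the own pair (median -0.42). In delIDR1 10 were lower and 1 higher (median -0.69, with 27.7% and 22.4% of all genes), and also 10 and 1 against the own pair (median -0.40). All-gene medians in these 3 constructs were between -0.03 and 0.00. FOXM1 itself was at -0.03 ± 0.0812 in CBR and -0.21 ± 0.0819 in delIDR1 against all 4. These values depend on the reference, as the own pair of both constructs was the lower empty vector pair (108 against 137 CPM). Against the own pair FOXM1 was called higher in 3 of 7 constructs and lower in 2. The delIDR1 call of FOXM1 was lost under most alternatives, such as against the own pair (-0.02). ARID1A wild type had 2 lower and 1 higher against all 4 (median -0.12), but 3 lower and 7 higher against the own pair (median 0.29), so the direction of the list depended on the empty vector pair. Against all 4, CKS1B was at -0.90 ± 0.0902 and SKP2 at 0.92 ± 0.131. In set 3, which has no own pair, 8 targets were higher and 2 lower in Block9del, and 6 and 2 in Block13del. A457_G461del had 7 and 2, 42YS 5 and 1, and the AQG scramble 2 and 2. The medians of the first 4 were 0.61, 0.51, 0.40 and 0.25. Of all genes, 17.8%, 19.1%, 19.1% and 15.8% were higher and 21.2%, 20.2%, 19.9% and 18% lower in them.

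FOXK1, which represses autophagy genes, had 138, 139, 95.1 and 88.5 CPM in the empty vector. M2 had 65.9 and 62.5 CPM and ARID1B wild type 72.5 and 77.6, below all 4. The changes were -0.85 ± 0.142 and -0.62 ± 0.140, and -0.51 ± 0.0738 and -0.29 ± 0.0740 against the own pair. The calls of FOXK1 in 42YS and the AQG scramble were lost against replicates 3 and 4 alone (-0.09 and -0.10). FOXA1 was called higher in 42YS (0.52 ± 0.137), M2 (0.44 ± 0.138) and ARID1A wild type (0.39 ± 0.141), each with 9.78 to 11.2 CPM.

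FOXS1, chosen for description after its values were seen, is a forkhead of pericytes and the sensory nervous system and had no read in the 4 empty vector libraries. ARID1A wild type had 19 and 18 reads, M2 15 and 10, ARID1B wild type 7 and 12, and delIDR1 7 and 3. With 3 reads as the floor over the empty vector group, these were at least 24.9-fold, 13.3-fold, 12.5-fold and 5.72-fold higher, and all 4 were called. The other constructs had between 0 and 4 reads over both libraries. DBDmut, with 1 and 3 reads, was below ARID1A wild type (-3.29 ± 0.710, adjusted p = 0.010), a call that was lost without either DBDmut library or without ARID1A wild type replicate 1.

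The remaining tested FOX genes changed by less than 2-fold, or rested on low counts. FOXD2 was called lower in M2 and in all 5 constructs of set 3, most in the AQG scramble (-0.90 ± 0.0859), and FOXN3, a checkpoint-linked repressor, in 6 constructs, most in M2 (-0.97 ± 0.176). The empty vector pairs differed for FOXN3, at 100 and 60.2 CPM. Of the stranded reads over FOXD2, 35.6, 25.6 and 26.8% lay on the strand not counted in sets 1, 2 and 3, so its level is uncertain. FOXD1 was lower in CBR (-0.75 ± 0.110) and delIDR1 (-0.39 ± 0.107). FOXL2, an ovarian granulosa factor, was lower in 7 constructs by 0.34 to 0.62. FOXD3 was lower in Block9del and Block13del. FOXJ2, FOXJ3, FOXK2 and FOXN2 changed by at most 0.50 in either direction.

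FOXD4 and FOXH1 were near 1 CPM and their empty vector pairs differed, at 1.53 and 0.434 CPM for FOXD4 and 1.78 and 0.648 CPM for FOXH1. FOXD4 was called lower in 7 constructs against all 4, DDX4 among them. Against the own pair it was called lower in 3 of the 7 constructs that have one. Among these were ARID1A wild type (-1.87 ± 0.339) and DBDmut (-2.10 ± 0.342), and DDX4 was not called (-0.43 ± 0.477). FOXD4 has near-identical copies in the genome, so its reads are uncertain. For FOXH1, a SMAD partner, the counted strand held the minority of the reads (84.7, 94.3 and 89.6% of the stranded reads over this gene lay on the other strand in sets 1, 2 and 3), so its signal is uncertain. FOXN4 was at 0.181 to 1.45 CPM in all libraries and was called in none of the constructs against all 4. Its empty vector pairs also differed, at 0.315 and 1.15 CPM. Against the own pair it was called higher in 2 of 7 constructs and lower in 1.

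The FOXO target list, with 14 of 15 genes tested, holds genes of cell cycle exit and insulin response. In ARID1A wild type 6 were called higher and none lower (median 0.15, beside -0.06 over all genes), led by CITED2 (2.07 ± 0.0672), BCL6 (1.23 ± 0.122) and KLF6 (0.38 ± 0.0908). In ARID1B wild type 4 were higher and 1 lower (median 0.12), with CITED2 at 1.56 ± 0.0680, BCL6 at 0.95 ± 0.124 and BCL2L11, a cell death gene, at 0.49 ± 0.0543. The 1 lower was INSR, the insulin receptor (-0.59 ± 0.117), named after its value was seen. In CBR 1 was higher and 7 lower (median -0.31), and in Block9del 2 were higher and 9 lower (median -0.29), beside 25.2% higher and 27.8% lower of all genes in CBR and 17.8% and 21.2% in Block9del. Against the own pair the counts were 6 higher and 3 lower in ARID1A wild type, 7 and 2 in ARID1B wild type, and 1 and 8 in CBR. The own-pair shares of all genes were 29.9% higher and 30.8% lower, 23.6% and 28.5%, and 28.7% and 30.8% in the same order. FOXO6 itself was higher in CBR (2.87 ± 0.180). Of 6 tested decidual genes linked to FOXO1, 2 were higher in each wild type and none lower against all 4, and 4 higher and 2 lower in ARID1A and 3 and 2 in ARID1B wild type against the own pair. The 2 were WNT4 (3.57 ± 0.250 and 5.49 ± 0.217) and IL15 (4.0 ± 0.378 and 2.52 ± 0.436).

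Of all genes, 21.1% were called higher and 23.5% lower in ARID1A wild type and 19.2% and 23.9% in ARID1B wild type, with medians of -0.06 and -0.07. Against the own pair these shares were 29.9% and 30.8%, and 23.6% and 28.5%. In CBR they were 25.2% and 27.8% against all 4, and 28.7% and 30.8% against the own pair. The SOX9 cartilage list had 6 of 12 genes tested, of which 5 were higher in ARID1A wild type and 2 higher and 1 lower in ARID1B wild type (medians 1.71 and 0.60). The own-pair counts were 4 higher in ARID1A wild type, and 2 higher and 1 lower in ARID1B wild type. COL9A3, a cartilage collagen gene, changed by 2.51 ± 0.205 and 1.5 ± 0.221. COL11A1 was at 0.0112 CPM in the empty vector and at 0.498 and 0.868 CPM in the 2 wild types, too few reads for a stable fold. The SOX10 list (6 tested) had 5 higher in ARID1A wild type, among them MBP (1.44 ± 0.0906) and MITF (0.83 ± 0.0985), 2 higher in ARID1B wild type, and 3 higher and 2 lower in CBR. Against the own pair these counts were 5, 2, and 2 and 2. SOX10 itself had 5 reads in all libraries. Of 5 tested SOX2 partners, PAX6 (-0.32 ± 0.0682 and -0.31 ± 0.0680) and SALL4 (-0.45 ± 0.119 and -0.38 ± 0.118) were lower and POU3F3 higher in both wild types. For this list 2 were higher and 3 lower against the own pair in ARID1A wild type, and 2 and 2 in ARID1B wild type. Of 6 tested motile cilium genes, 4 were lower and 1 higher in ARID1A wild type, and 2 lower and 1 higher in ARID1B wild type, and against the own pair 2 lower and 1 higher in each. The 11 tested HMG-box relatives had 4 higher and 1 lower in each wild type, or 6 and 3 in ARID1A and 7 and 3 in ARID1B wild type against the own pair, with TOX2, an HMG-box factor of lymphoid cells, at 6.04 ± 0.148 and 5.73 ± 0.150.

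Between constructs of the same set, CBR and ARID1A wild type differed in 15 members (background 47.5%), 8 higher and 7 lower in CBR (22.2% and 25.3% of all genes), and delIDR1 and ARID1A wild type also in 15 (40.2%), 11 higher and 4 lower (17.4% and 22.7%). DBDmut differed from ARID1A wild type in 3 (5.62%), namely SOX2, FOXO6 and FOXS1. M2 and ARID1B wild type differed in 7 (14.3%): FOXF2, FOXO1, FOXA1 and FOXM1 were higher in M2, and FOXO6, SOX9 and SOX12 lower. 42YS and the AQG scramble, whose own libraries differed most from each other, were apart in 9 (15.8%). These were led by FOXO6, SOX6 (0.62 ± 0.131), FOXN2 (0.61 ± 0.137) and SOX18 (0.59 ± 0.122). A457_G461del and Block9del differed in 7 (12.6%), with FOXP2, FOXO6, FOXO1, FOXP4 and FOXO4 higher and SOX18 and SOX9 lower in A457_G461del.

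Block13del and Block9del differed in none of the 36 members with edgeR (background 0.471%). At an unadjusted p under 0.05 there were 2 such members, and DESeq2 called 1. Across sets, DDX4 and ARID1A wild type differed in 9 members (36.5%), or in 17 by the difference of own-pair responses (50.5%). ARID1A and ARID1B wild type differed in 5 (13.5%), namely FOXP2, FOXO6, FOXK1, SOX4 and SOX9, or in 12 by the difference of own-pair responses (41.6%). Of those 5, SOX9 alone was called in the same direction both ways, at 0.32 ± 0.0823 and 0.59.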

How the data were processed

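Polyadenylated RNA was sequenced in all 28 libraries. Per the submitters' processing notes, bcl2fastq, STAR 2.5.2b, Bowtie2 2.29 and genome build hg19 were used; their roles and the gene annotation are not given in the sources used here. Each deposited table lists a gene and its raw read counts, which the authors left unnormalized, without strand and for either strand. Opposite-strand counts were analysed, and the 4 total lines were left out. The lines for reads in no gene and for ambiguous reads held 12.9 to 28.5% of these reads and the gene reads together. The other total lines are not part of this share.

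Genes were kept by filterByExpr of edgeR 4.0.16 (14220 of 26346). Libraries were scaled by TMM, and CPM uses these factors. One quasi-likelihood fit of 13 groups over all 28 libraries gave 21 contrasts, with Benjamini-Hochberg adjustment over all tested genes and a threshold of 0.05. Every adjusted p in the text is from this two-sided edgeR test. Errors after ± are standard errors for log2 changes and SD for levels. Splitting the empty vector into its pairs in a second fit gave the own-pair values, and, across sets, differences of own-pair responses. Folds against a group with no read are lower bounds against 3 reads over the group, and those against 1 to 3 reads carry a counting interval.

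The members, gene lists and target lists were chosen with earlier results of these data known. One untested member is not reported here. Named genes were 18 members fixed by name, members called with a log2 change of at least 2, a mean of 1 CPM and no overlap with the reference (FOXP2 and FOXO6 against the empty vector, and SOX2, FOXF2 and FOXP2 between constructs), and up to 3 called genes per list by smallest p in either wild type. Exon lengths are from GENCODE 29 and promoters from RefSeq GRCh38.p14, matched by symbol. Alternatives were DESeq2 1.42.0, RLE factors, other filters, unstranded counts, a replicate block, fits of the compared groups alone, either empty vector pair as the reference, and omission of single libraries. On simulated data the fit was tested with known fold changes. Further software was R 4.3.3 with limma 3.58.1, and Python 3.11.15 with scipy 1.17.1, matplotlib 3.10.9, pandas 2.3.3 and numpy 2.4.6.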

Additional observations from a re-analysis of the deposited data

Results flagged for a closer look

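In the 4 empty vector libraries, FOXP2 and FOXO6 each had 1 library far from the other 3: the gap to the nearest library was 1.0 and 0.862 of the whole range. For FOXP2 this is a single read in replicate 2, and for FOXO6 it is 1.35 CPM against 1.05 to 1.09. Chance flags about 1 in 20 groups of 4 libraries that share 1 spread. A single read in 1 library always gives 1.0, so that rate does not hold for FOXP2. It may not hold for FOXO6 either, as the 4 libraries were 2 pairs.

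The response of a member to its own empty vector pair differed between constructs in several cases, by the test of the difference itself (edgeR, adjusted p under 0.05). Between DDX4 and ARID1A wild type the log2 response of DDX4 was greater for FOXF2 by 2.59, for SOX18 by 0.86, for SOX4 by 0.70, for FOXP1 by 0.60, for FOXK1 by 0.52 and for FOXM1 by 0.40. It was smaller for SOX13 (-1.78), SOX12 (-0.51) and SOX9 (-0.26). Between ARID1A and ARID1B wild type the response of ARID1A was greater for SOX13 by 1.66, for FOXA1 by 0.69, for SOX9 by 0.59 and for FOXM1 by 0.55. It was smaller for FOXD4 (-2.39), FOXP4 (-0.66), FOXO3 (-0.32) and SOX4 (-0.16). The 2 pairs belong to different strand sets, so that a difference between sets cannot be told apart from one between the pairs.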

How the results depend on the processing

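Depth limits members under about 1 CPM, and 2 libraries per construct limit every comparison. Same-numbered libraries did not deviate together (66 pairs of groups, r from -0.319 to 0.343, 5 over 0.1), so the numbers do not pair them. The cause of the changes below was not tested. The share of all genes called was counted only for own pairs and differences of own-pair responses. It was not counted for the other alternatives or without single libraries, so these counts are no result about the members. Replicate numbers 3 and 4 occur only in the empty vector, so the replicate block fits each of these libraries by a term of its own. In that fit the empty vector level rests on replicates 1 and 2. With a replicate block, members called against the empty vector were 18 for DDX4, 24 for the AQG scramble and 22 for 42YS. Between constructs the replicate block gave 23 for delIDR1 and ARID1A wild type, 7 for DBDmut, 16 for DDX4, 17 for M2 and ARID1B wild type, 15 for the 2 wild types, 16 for 42YS and the AQG scramble, 15 for A457_G461del and Block9del, and 1 for Block13del and Block9del. With only the groups compared, calls against the empty vector were 5 for ARID1A wild type, 9 for CBR, 6 for delIDR1, 4 for DBDmut, 2 for DDX4, 0 for the AQG scramble, 0 for 42YS, 5 for ARID1B wild type, 7 for M2, 8 for A457_G461del, 2 for Block13del and 2 for Block9del. Between constructs that fit gave 26 for delIDR1, 8 for DBDmut and 18 for DDX4 against ARID1A wild type, 20 for M2 and ARID1B wild type, 20 for the 2 wild types, 2 for 42YS and the AQG scramble, 16 for A457_G461del and Block9del, and 1 for Block13del and Block9del. Against empty vector replicates 1 and 2 alone there were 17 for DDX4, 24 for the AQG scramble and 22 for 42YS, and against replicates 3 and 4 alone 26 for CBR and 17 for DDX4. The difference of own-pair responses gave 17 for DDX4 and ARID1A wild type and 12 for the 2 wild types. An average log2 CPM of at least 1 gave 1 for DBDmut and ARID1A wild type, and DESeq2, no filter and unstranded counts each gave 1 for Block13del and Block9del. The direction of SOX4 reversed in delIDR1 against replicates 3 and 4 alone (0.0023), and between the wild types by own-pair responses (-0.16).

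Leaving out each library gave 9 to 18 calls against the empty vector for ARID1A wild type, 12 to 17 for CBR, 6 to 16 for delIDR1, 4 to 11 for DBDmut, 5 to 12 for DDX4, 6 to 14 for the AQG scramble, 5 to 16 for 42YS, 13 to 19 for ARID1B wild type, 13 to 22 for M2, 13 to 20 for A457_G461del, 9 to 18 for Block13del and 10 to 20 for Block9del. Between constructs it gave 9 to 12 for CBR, 8 to 10 for delIDR1, 1 to 1 for DBDmut and 7 to 8 for DDX4 against ARID1A wild type, 4 to 5 for M2, 1 to 2 for the 2 wild types, 4 to 7 for 42YS, 5 to 7 for A457_G461del and 0 to 0 for Block13del. Counts fell by more than 1.5 times without single libraries as follows. Against the empty vector these were ARID1A wild type replicate 1 (9) or 2 (10), delIDR1 replicate 1 (6) or 2 (8), DBDmut replicate 1 (6) or 2 (4), DDX4 replicate 1 (5) or 2 (6), 42YS replicate 1 or 2 (5 each), Block13del replicate 1 or 2 (9 each), Block9del replicate 1 (10), and, for the AQG scramble, empty vector replicate 1 (7) or 2 (6). Between constructs they were ARID1A wild type replicate 2 for CBR (9); ARID1A wild type replicate 1 (8) or 2 (9) or delIDR1 replicate 2 (9) for delIDR1; any of the 4 libraries for DBDmut (1 each); ARID1B wild type replicate 1 (1) or any other library (2) for the 2 wild types; ARID1B wild type replicate 2 for M2 (4); and the AQG scramble replicate 2 (5) or 42YS replicate 1 (5) or 2 (4) for 42YS.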
